A study of Homo sapiens with 6 samples.

Results

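The kinesin motor family was examined in RNA-seq of EJ, an established human bladder cancer cell line. Members were the genes whose symbol begins with KIF and a digit or with KIFC. Of 39 such genes in the tables, 4 were left out of the account, and the 35 members described here stand among 15953 genes measured. They comprise 13 mitotic kinesins, 13 transport kinesins, 4 ciliary or Hedgehog kinesins and 5 kinesins with other or less settled roles. KIF2B, KIF28P, KIF19 and KIF25 had been listed in these classes and have no row in the tables used here.

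The 2 groups were stable EJ lines that differed in the short hairpin RNA they carried. The shNC group (3 libraries) carried a negative control hairpin and the shSTIL group (3 libraries) carried a hairpin against STIL, a centriole assembly factor that is needed for centriole duplication. The column headings name the same groups by siRNA. The knockdown vector was a lentivirus. Sequences are listed for siRNA oligonucleotides against STIL, but it is not stated which of them, if any, the lentiviral hairpin carries, nor how many hairpins or clones were used, nor whether the 3 libraries of a group came from separate cultures, so p-values measure the spread between these libraries, which may be technical. Depth was 16214772 to 16431243 reads per library in shNC and 16734469 to 16901634 in shSTIL. STIL itself, at chromosome 1, 47250139 to 47314147 on the minus strand of GRCh38, was 5.98, 6.10 and 6.01 log2 CPM (counts normalised to the size of each library and log2 transformed) in shNC and 4.05, 4.06 and 4.01 in shSTIL. The groups did not overlap, and the log2 fold change was -1.99 (SE 0.05, adjusted p = 6.1e-12). Of 13 urothelial and epithelial markers, 11 are in the tables and 3 of these averaged at least 3 log2 CPM (KRT7, KRT8 and KRT18), while KRT5 and KRT20 had at most 1 read in any library and CDH1 at most 3. Of these 11, 1 was called higher (KRT7, log2 fold change 0.49) and 2 lower (KRT8, -0.70, and UPK1B, -1.12). UPK1B had only 5 to 20 reads per library. Among all genes 23.5% were called higher and 23.6% lower, so these markers were not called more often than other genes. The mesenchymal marker VIM averaged 10.52 in shNC and 9.84 in shSTIL and was called lower, and CDH2 was not called. Of 8 markers of immune, endothelial and fibroblast cells, 4 are in the tables, with summed levels of 13.74 to 16.02 CPM in shNC and 14.07 to 16.60 CPM in shSTIL, and COL1A1 among them was called lower.

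Kinesins are motor proteins that walk along microtubules with energy from ATP. Mitotic kinesins are made mostly in G2 and M phase, when they build the bipolar spindle, move and align chromosomes and complete cytokinesis. Transport kinesins carry vesicles, organelles and protein complexes through the cytoplasm of cells in any phase, with kinesin-1 and kinesin-3 motors moving toward microtubule plus ends. Many G2/M genes share a pair of promoter elements, the cell cycle genes homology region (CHR), which is bound by the DREAM and MuvB complexes, and CCAAT boxes, which are bound by NF-Y.

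The promoters of the family are shown first because mitotic and transport members differed in these letters. RefSeq promoters (GRCh38.p14) from 250 bases before to 50 bases after the transcription start were given for 28 of the 35 members. They were searched on both strands. The CHR element was taken as TTTGAA, and its form with C as the third base, TTCGAA, was counted too. The CCAAT box was taken as its name spells it. An E2F element was taken as any of TTTCCCGC, TTTCGCGC, TTTGCCGC or TTTGGCGC. None of these motifs contains another. The 7 members without an entry were KIF5A, KIF13B, KIF21B, KIF26B, KIF27, KIFC2 and KIFC3, none of them mitotic. The 14 mitotic promoters belong to 13 genes and the 14 transport promoters to 9. CHR letters were in 12 of 14 mitotic promoters (85.7%), in 1 of 14 transport promoters (7.14%) and in 16.35% of all 35116 promoters of the same length. By gene, they were in 11 of 13 mitotic and 1 of 9 transport genes. CCAAT letters were in 78.6% of mitotic, 28.6% of transport and 34.6% of all promoters. Both together were in 10 mitotic promoters (71.4%), in 1 transport promoter, that of KIF5B, and in 6.38% of all promoters. The E2F letters were in 1 mitotic promoter, that of KIF15, in 0 transport promoters and in 3.32% of all promoters. None of the 5 ciliary and 4 other promoters had CHR letters. Such matches are descriptions of letters and not evidence of binding.

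The windows below run from 100 bases before to 20 bases after the start, 5′ to 3′ on the strand of the gene, with CHR or CCAAT letters of either strand in capitals. KIF20A, KIF11 and KIFC1 are shown for their large falls, KIF4A for a smaller fall, KIF14 because it has both elements and was not called, and KIF1C as a transport kinesin with neither. They lie at chr5:138179012-138179131 (plus strand, KIF20A), chr10:92593030-92593149 (plus, KIF11), chr6:33391723-33391842 (plus, KIFC1), chrX:70290004-70290123 (plus, KIF4A), chr1:200620732-200620851 (minus, KIF14) and chr17:4997850-4997969 (plus, KIF1C).
KIF20A: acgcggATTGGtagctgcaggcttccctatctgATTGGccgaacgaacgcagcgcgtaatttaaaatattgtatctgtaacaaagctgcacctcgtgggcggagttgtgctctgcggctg
KIF11: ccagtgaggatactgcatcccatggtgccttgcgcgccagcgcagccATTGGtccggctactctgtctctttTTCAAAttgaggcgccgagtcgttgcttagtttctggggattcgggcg
KIFC1: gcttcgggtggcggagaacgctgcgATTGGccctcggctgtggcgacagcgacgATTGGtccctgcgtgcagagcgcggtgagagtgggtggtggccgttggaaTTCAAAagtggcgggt
KIF4A: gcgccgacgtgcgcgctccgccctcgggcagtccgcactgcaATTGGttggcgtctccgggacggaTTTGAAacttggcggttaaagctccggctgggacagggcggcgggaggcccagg
KIF14: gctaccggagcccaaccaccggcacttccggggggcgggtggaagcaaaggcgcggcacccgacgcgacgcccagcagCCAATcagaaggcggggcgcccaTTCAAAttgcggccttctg
KIF1C: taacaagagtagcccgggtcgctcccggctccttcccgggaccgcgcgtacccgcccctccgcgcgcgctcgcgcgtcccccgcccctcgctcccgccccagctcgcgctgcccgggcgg
In KIF11 the CCAAT match starts 53 bases and the CHR match 28 bases before the transcription start, and in KIF4A they start 58 and 34 bases before it. KIF20A has CCAAT matches at 94 and 67 bases before the start and no CHR match in its promoter. KIF2C, which is not shown and was called lower, has no CHR, CCAAT or E2F match in its promoter.

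**Figure D1:**
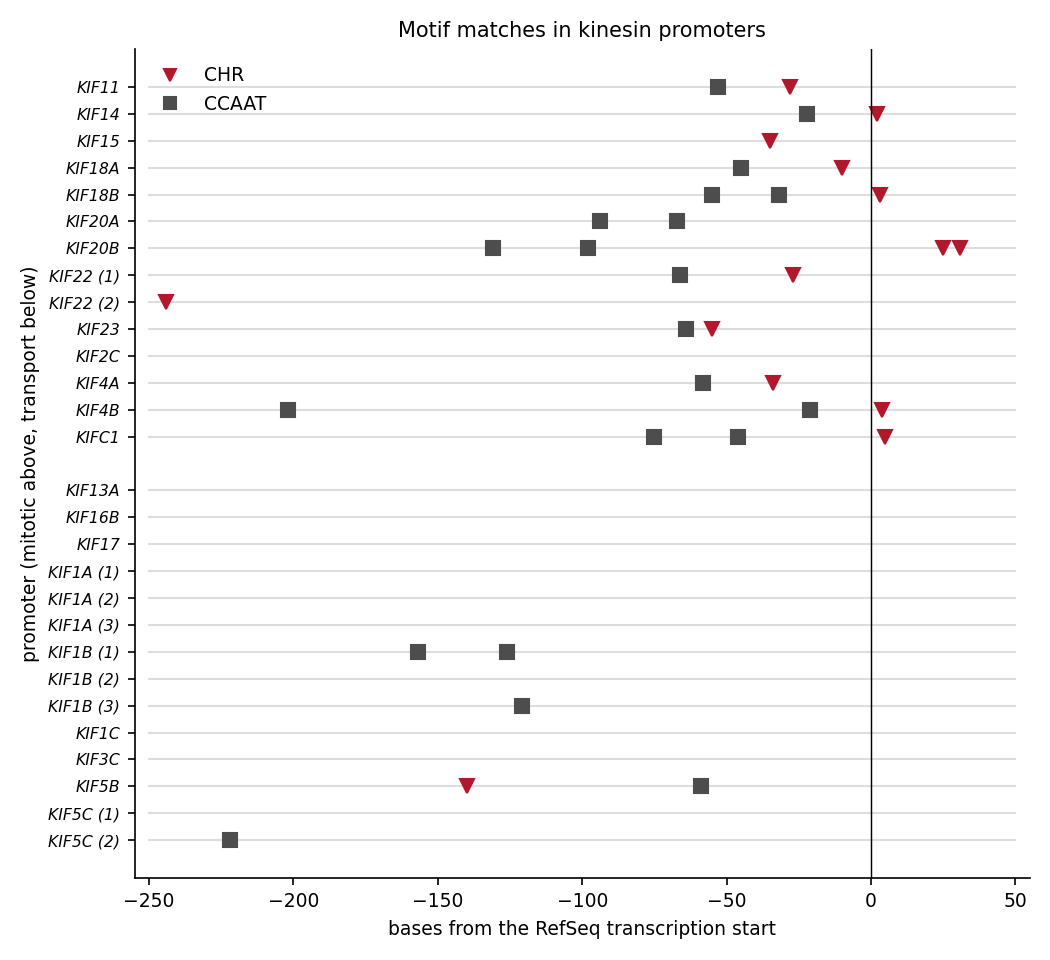
Positions of CHR (red triangles) and CCAAT (grey squares) matches in RefSeq promoters of mitotic kinesins (upper 14 lines) and transport kinesins (lower 14 lines), against the distance in bases from the transcription start; a gene with several promoters is numbered. Most mitotic matches lie within 100 bases before the start or just after it, whereas most transport lines are empty.

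The comparison of shSTIL with shNC asks how kinesin transcripts differ when STIL is depleted. In shSTIL, 16 of the 35 kinesin genes fell and 3 rose at an adjusted p under 0.01 (limma), and 16 did not pass the test. Mitotic kinesins took 11 of the 16 falls and 0 of the 3 rises. Their median log2 fold change was -0.48, against -0.01 for transport kinesins and 0.0052 for all genes. These medians include KIF4B, KIF1A, KIF5A and KIF17, which have few reads. Over members averaging at least 3 log2 CPM they were -0.53 (12 mitotic) and -0.09 (10 transport), against -0.0031 for all genes at that level. In the same fit 47.1% of all genes were called, 23.6% lower and 23.5% higher, so 3 lower and 1 higher among 13 transport kinesins is not above what all genes gave, whereas 11 lower among 13 mitotic kinesins is. Because mitotic kinesins are well expressed, the nearest background is that of the 6496 genes that averaged at least 5 log2 CPM, of which 34.5% were called lower and 36.0% higher. The 3 libraries of a group did not overlap those of the other in 24 kinesin genes (11 mitotic, 7 transport, 3 ciliary and 3 other), against 60.3% of all genes. Among the 6496 genes that averaged at least 5 log2 CPM, 5233 had no overlap, so lack of overlap alone does not set the mitotic kinesins apart. The exact permutation test over the 6 libraries gives each of the 24 kinesin genes a two-sided p of 0.1, the smallest that 20 labellings allow. In bulk RNA, fewer cells in mitosis and less kinesin RNA per cell cannot be told apart. Fold changes here are on the log2 scale of CPM with a prior count of 2, which understates changes of genes with few reads.

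**Figure D2:**
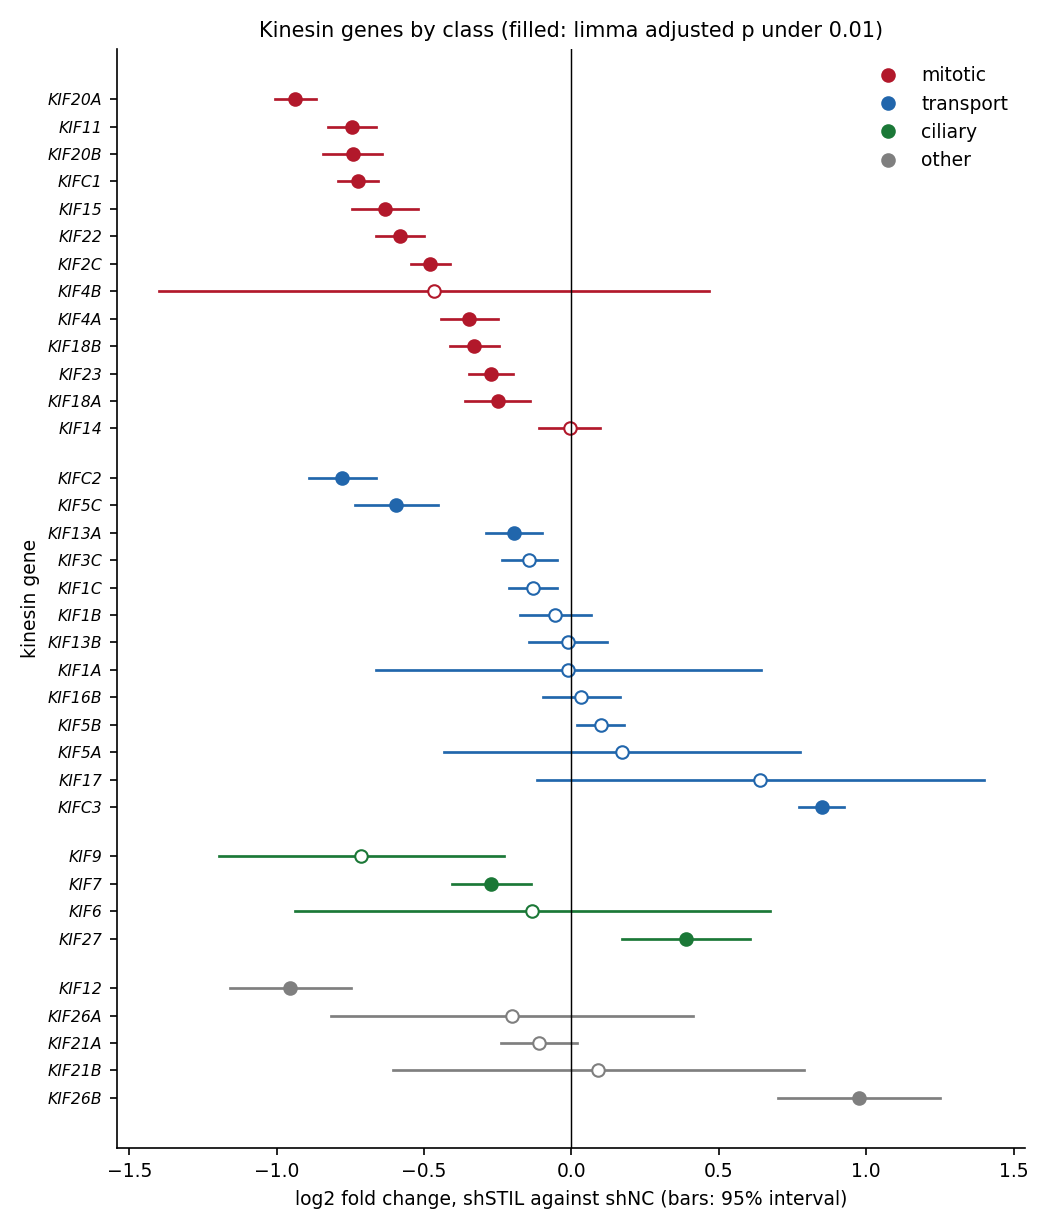
Log2 fold change of shSTIL against shNC (x axis) for each of the 35 kinesin genes, grouped by class; points are limma estimates from 3 libraries a group, bars 95% intervals, and filled points have an adjusted p under 0.01. Of the mitotic genes 11 are filled and left of 0, and the transport genes spread on both sides of 0 from -0.78 (KIFC2) to 0.85 (KIFC3).

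The motors that set up the spindle fell together. KIF11 (kinesin-5, Eg5), a tetramer that slides antiparallel microtubules apart and so separates the poles, was 7.67, 7.81 and 7.73 log2 CPM in shNC and 6.99, 7.0 and 6.99 in shSTIL. All 3 shSTIL libraries lay below all shNC libraries, and the log2 fold change was -0.74 (SE 0.04, adjusted p = 2.1e-09), or 40.3% lower. KIF15 (kinesin-12), which can maintain a bipolar spindle beside KIF11, was 5.94, 6.02 and 6.04 in shNC and 5.47, 5.32 and 5.31 in shSTIL. It fell without overlap by 0.63 on the log2 scale (SE 0.05, adjusted p = 2.1e-07). KIFC1 (kinesin-14, HSET), a minus-end motor that focuses the poles and clusters extra centrosomes, was 7.51, 7.48 and 7.47 in shNC and 6.77, 6.76 and 6.75 in shSTIL. Libraries of 1 group agreed within 0.05 for KIFC1, and the groups stood apart by a log2 fold change of -0.73 (SE 0.03, adjusted p = 5.0e-10). KIF11 and KIFC1, which push and pull on the spindle in opposite directions, thus fell to a like extent, to 59.7% and 60.5% of the shNC level.

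Motors that act on chromosomes and on microtubule ends had smaller estimated falls. KIF22 (kinesin-10, Kid), which pushes chromosome arms away from the poles, was 6.96, 6.92 and 7.03 log2 CPM in shNC and 6.38, 6.38 and 6.41 in shSTIL. The groups did not overlap, with a log2 fold change of -0.58 (SE 0.04, adjusted p = 2.0e-08). KIF2C (kinesin-13, MCAK), which depolymerises microtubules at kinetochores to correct faulty attachments, was 7.48, 7.5 and 7.52 in shNC and 7.01, 7.01 and 7.04 in shSTIL. It fell without overlap by 0.48 (SE 0.03, adjusted p = 2.2e-08). KIF4A (kinesin-4), a chromokinesin that also limits the length of midzone microtubules, was 6.60, 6.72 and 6.61 in shNC and 6.36, 6.25 and 6.27 in shSTIL. Its difference of -0.35 (SE 0.04, adjusted p = 1.5e-05) was smaller, yet the highest shSTIL library was below the lowest shNC library.

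The kinesin-8 motors, which dampen microtubule growth at plus ends, had the smallest estimated falls of the chromosome group. KIF18B was 6.84, 6.86 and 6.81 in shNC and 6.52, 6.44 and 6.56 in shSTIL, a log2 fold change of -0.33 (SE 0.04, adjusted p = 6.2e-06). KIF18A, which aligns chromosomes at the metaphase plate, was 5.51, 5.56 and 5.59 in shNC and 5.39, 5.26 and 5.25 in shSTIL. The gap between the groups was narrow for KIF18A, whose log2 fold change was -0.25 (SE 0.05, adjusted p = 9.0e-04). This call was lost in 5 of 6 fits that left out 1 library, all but that without shSTIL replicate 1, with adjusted p up to 0.0277.

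The kinesin-6 family, which works at the central spindle and in cytokinesis, fell in all of its 3 members but by unequal amounts. KIF20A (MKLP2), which brings the chromosomal passenger complex to the midzone, was 7.44, 7.41 and 7.43 log2 CPM in shNC and 6.48, 6.47 and 6.52 in shSTIL. It had the deepest fall of the mitotic class, with a log2 fold change of -0.94 (SE 0.03, adjusted p = 6.3e-11), or 47.8% lower. KIF20B (MPHOSPH1), which acts in abscission, was 6.76, 6.92 and 6.84 in shNC and 6.15, 6.08 and 6.05 in shSTIL. It too fell without overlap, by 0.74 (SE 0.05, adjusted p = 1.3e-08). KIF23 (MKLP1), the motor of the centralspindlin complex, was 6.93, 7.01 and 7.0 in shNC and 6.72, 6.70 and 6.70 in shSTIL. The groups did not overlap for KIF23, but its difference of -0.27 (SE 0.03, adjusted p = 1.5e-05) had a 95% interval of -0.35 to -0.20, which does not reach that of KIF20A, -1.01 to -0.87.

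KIF14, a kinesin-3 motor that binds PRC1 and citron kinase at the midbody, stood apart from the other well expressed mitotic members. Its values were 6.22, 6.32 and 6.26 in shNC and 6.36, 6.22 and 6.20 in shSTIL. The groups overlapped, with the highest value of the 6 in an shSTIL library, and the log2 fold change was -0.01 (95% interval -0.11 to 0.10, adjusted p = 0.928). KIF4B, a retrocopy of KIF4A, had 0, 3 and 3 reads in shNC and 3, 0 and 0 in shSTIL, which is -1.72 and -1.69 log2 CPM in shNC replicates 2 and 3, -1.76 in shSTIL replicate 1 and the floor of the scale in the others. Its reads can be divided with KIF4A, so these values are uncertain, and no difference was detectable at this depth (adjusted p = 0.396).

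**Figure D3:**
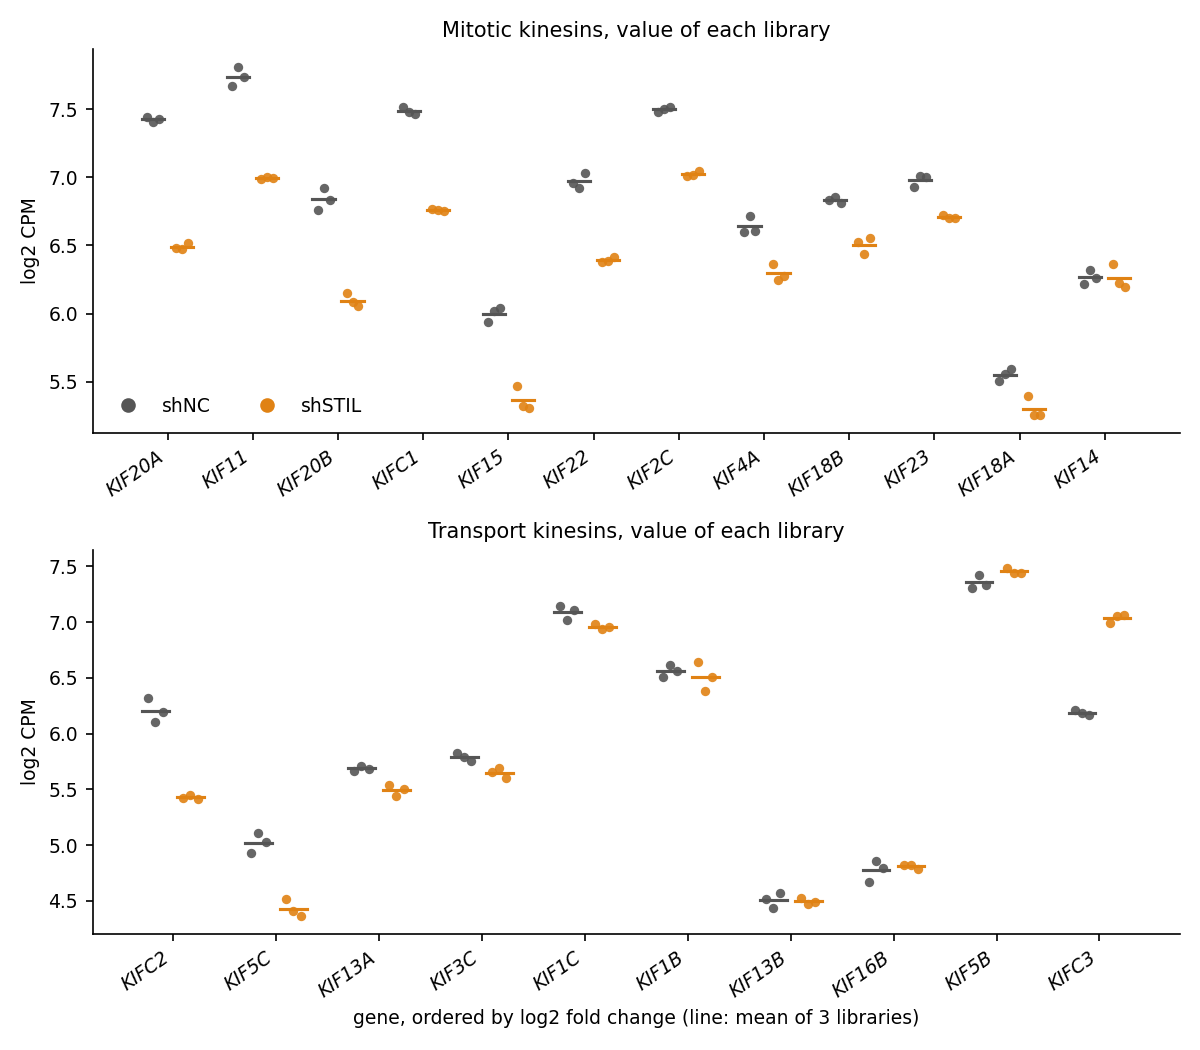
Log2 CPM (y axis) of each of the 6 libraries for the 12 mitotic kinesins (upper panel) and the 10 transport kinesins (lower panel) that averaged at least 3 log2 CPM, ordered by fold change; grey points are shNC, orange points shSTIL and lines the mean of 3 libraries. Grey and orange points separate in every mitotic gene but KIF14, whereas in the lower panel the widest gaps are those of KIFC2 and KIF5C (lower) and KIFC3 (higher).

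Levels per kilobase of the longest coding transcript in GENCODE can be set between genes. On this scale KIFC1 was the most abundant of the 35 members in shNC, at 66.3 ± 1.16 CPM per kilobase (SD, n = 3). It was followed by KIF2C at 61.2 ± 0.82 and KIF20A at 53.7 ± 0.66. In shSTIL, KIF2C led with 44.0 ± 0.55, and KIFC1 had 40.1 ± 0.23. The transport kinesin KIFC3 rose to 38.3 ± 1.03 on this scale, from 21.2 ± 0.29, and so passed KIF20A, which was at 28.0 ± 0.48 in shSTIL. KIF5B, the ubiquitous kinesin-1 heavy chain, was at 27.9 ± 1.22 in shNC and 29.9 ± 0.60 in shSTIL. Transcripts other than the longest would shift these levels.

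Most spindle partners of the mitotic motors fell too. Of 7 listed partners, 5 were called lower and 0 higher, with a median log2 fold change of -0.45, against 34.5% lower and 36.0% higher among all genes that averaged at least 5 log2 CPM. NUSAP1, which bundles spindle microtubules, fell by 1.28 on the log2 scale, from 8.23 ± 0.01 to 6.95 ± 0.05 log2 CPM (SD, n = 3). TPX2, which activates Aurora A and binds KIF11, fell by 0.57, from 9.15 ± 0.01 to 8.59 ± 0.02. CENPE, the kinesin-7 motor that carries chromosomes to the spindle equator and whose symbol lies outside the KIF naming, averaged 6.15 ± 0.12 in shNC and 6.25 ± 0.10 in shSTIL. With a log2 fold change of 0.10 (adjusted p = 0.187) and overlapping groups, CENPE stood with KIF14 and not with the motors that fell. The list held 1 further gene that was not called, ECT2, the guanine nucleotide exchange factor that centralspindlin recruits.

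Other genes of the cell cycle moved with the mitotic kinesins. Among 18 G2/M genes that are not kinesins, 16 were called lower and 0 higher. Of all genes at 5 log2 CPM or more, 34.5% were called lower and 36.0% higher. The G2/M median log2 fold change was -0.47, beside -0.48 for the 13 mitotic kinesins and -0.53 for the 12 that averaged at least 3 log2 CPM. The summed level of the G2/M genes was 3665 to 3792 CPM in shNC and 2436 to 2518 CPM in shSTIL. Among 20 S phase genes, 20 were called lower, beside the same 34.5%, with a median of -1.21 and a summed level of 3192 to 3232 CPM in shNC against 1342 to 1355 CPM in shSTIL. The part of cell cycle distribution in the kinesin differences was not tested. The largest mitotic kinesin fall (-0.94) was smaller in size than the S phase median.

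Transport kinesins showed no shared direction: 3 fell, 1 rose and 9 did not pass the test. Within kinesin-1, whose heavy chains pair with light chains to carry vesicles and mitochondria, the members diverged. KIF5B was 7.31, 7.43 and 7.33 log2 CPM in shNC and 7.49, 7.44 and 7.44 in shSTIL. The shSTIL libraries were all higher, by a log2 fold change of 0.10 (SE 0.04), but the adjusted p of 0.0336 missed the threshold. KIF5C, a heavy chain best known from neurons, was 4.93, 5.10 and 5.03 in shNC and 4.52, 4.41 and 4.36 in shSTIL. It fell without overlap by 0.59 (SE 0.07, adjusted p = 3.6e-06). KIF5A, the neuronal heavy chain, had at most 1 read in any library.

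In kinesin-2, which moves cargo along axonemes and in the cytoplasm, neither member examined passed the test. KIF3C was 5.83, 5.79 and 5.76 in shNC and 5.65, 5.69 and 5.60 in shSTIL, with no overlap, a log2 fold change of -0.14 (SE 0.04) and an adjusted p of 0.0120. KIF17 had 3 to 12 reads in shNC and 9 to 16 in shSTIL, with overlapping groups and an adjusted p of 0.142. At this depth a difference in KIF17 was not detectable.

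Kinesin-3 transport motors, which are fast carriers of vesicles and endosomes, lay close to 0. KIF13A, a carrier of recycling endosomes, was 5.66, 5.71 and 5.69 log2 CPM in shNC and 5.53, 5.44 and 5.5 in shSTIL. It was the only kinesin-3 gene called, lower by 0.19 on the log2 scale (SE 0.04, adjusted p = 0.00177), and the call was lost without shNC replicate 2 (adjusted p = 0.0125), without shNC replicate 3 (0.0140) and without shSTIL replicate 3 (0.0147). KIF1C, a carrier of dense core vesicles and integrins, was 7.15, 7.02 and 7.11 in shNC and 6.98, 6.94 and 6.96 in shSTIL. The groups did not overlap, and the log2 fold change of -0.13 (SE 0.04, adjusted p = 0.010) lay just outside the threshold. KIF1B, which carries mitochondria and synaptic vesicle precursors, was 6.51, 6.62 and 6.56 in shNC and 6.64, 6.38 and 6.5 in shSTIL, with overlapping groups.

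KIF13B was 4.52, 4.44 and 4.57 in shNC and 4.53, 4.47 and 4.49 in shSTIL. KIF16B, which moves early endosomes, was 4.67, 4.86 and 4.80 in shNC and 4.82, 4.82 and 4.78 in shSTIL. The groups overlapped in both genes. Their 95% intervals, -0.14 to 0.12 for KIF13B and -0.10 to 0.16 for KIF16B, leave out the estimate of KIF13A (-0.19). The interval of KIF1B was -0.18 to 0.07. That of KIF13A itself, -0.29 to -0.10, overlaps those of KIF13B and KIF1B, so KIF13A is not shown to differ from them. KIF1A, the neuronal motor, had at most 1 read in any library.

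The minus-end directed kinesin-14 motors of the transport class gave its largest changes, in opposite directions. KIFC3, which acts at adherens junctions, the Golgi apparatus and centrosomes, was 6.21, 6.19 and 6.17 log2 CPM in shNC and 6.99, 7.06 and 7.06 in shSTIL. It rose without overlap by a log2 fold change of 0.85 (SE 0.04, adjusted p = 3.5e-10), or 1.80-fold. Its call, like those of KIFC2 and KIF5C, held in every fit that left out 1 library. KIFC2, best known from neurons, was 6.32, 6.10 and 6.20 in shNC and 5.42, 5.45 and 5.42 in shSTIL. It fell by 0.78 (SE 0.05, adjusted p = 3.5e-08). With KIFC1, which is listed as mitotic, the kinesin-14 family thus held 2 falls of like size and 1 rise. The reads of KIFC2 are not whole (1117.94 in shNC replicate 2 and 722.62 in shSTIL replicate 3, for example), whereas those of KIFC1 and KIFC3 are. RSEM gives such fractions to a gene that shares reads with other transcripts, so the level of KIFC2 is less certain.

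Genes of the cargo side were called in both directions. Of 17 light chains, adaptors and cargo linkers, 7 were called higher and 3 lower, with a median log2 fold change of 0.05. The count of rises is near the 36.0% called higher among all genes that averaged at least 5 log2 CPM, and that of falls is below the 34.5% called lower. KLC2, a kinesin-1 light chain, rose from 6.13 ± 0.08 to 6.72 ± 0.09 log2 CPM (SD, n = 3). The opposing motor, cytoplasmic dynein with dynactin, had 4 of 20 genes called higher, 6 lower and a median of -0.06. Together these calls are about the 47.1% of all genes called (23.5% higher and 23.6% lower). Both counts lie below the 36.0% higher and 34.5% lower among genes that averaged at least 5 log2 CPM. DCTN4 rose from 6.38 ± 0.05 to 6.91 ± 0.02, whereas DCTN1, the subunit of dynactin that binds microtubules, fell from 7.88 ± 0.05 to 7.32 ± 0.03.

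**Figure D4:**
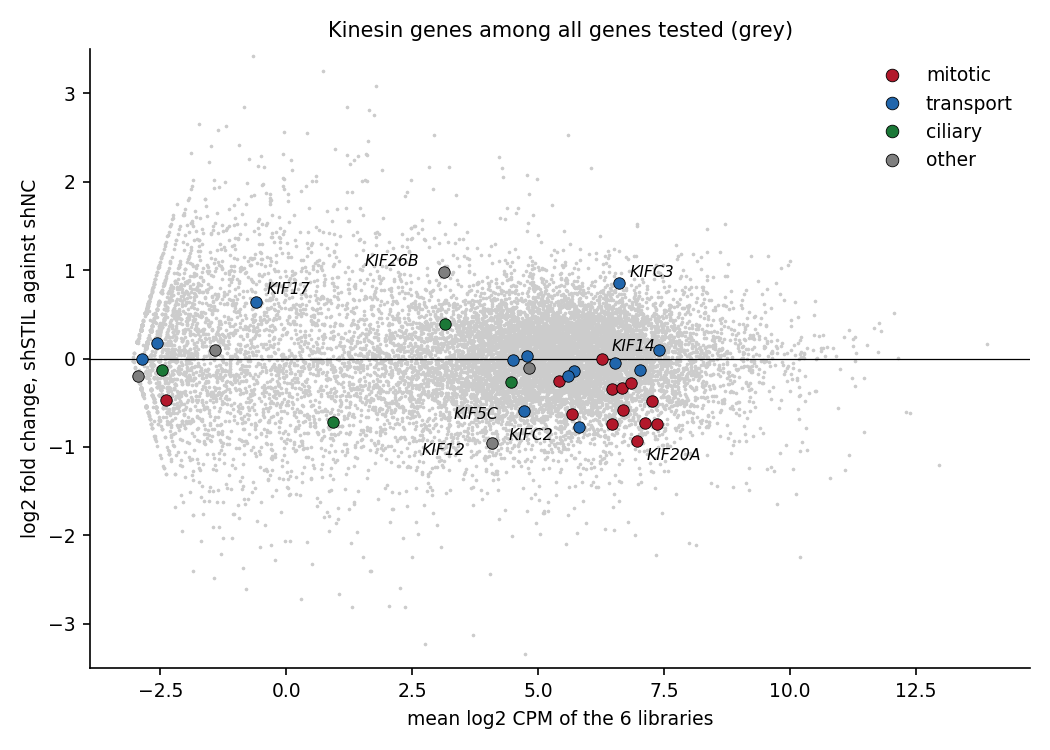
Log2 fold change of shSTIL against shNC (y axis) against mean log2 CPM over 6 libraries (x axis) for all 15953 genes (grey) with the 35 kinesin genes coloured by class. Mitotic kinesins (red) lie between mean values of 5 and 8, apart from KIF4B, and at or below 0, and KIFC3 (0.85) and KIF26B (0.98) are the highest kinesin points.

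Among ciliary and Hedgehog kinesins, KIF7, which organises the tip of the primary cilium and regulates GLI proteins, was 4.61, 4.66 and 4.53 log2 CPM in shNC and 4.31, 4.36 and 4.32 in shSTIL. The groups did not overlap, and its log2 fold change was -0.27 (SE 0.06, adjusted p = 0.00197). KIF27, a relative of KIF7 in the kinesin-4 family that is linked to motile cilia, was 2.85, 3.03 and 3.02 in shNC and 3.33, 3.32 and 3.41 in shSTIL. It rose by 0.39 (SE 0.10, adjusted p = 0.0045), so these relatives were called in opposite directions. Both calls were close to the threshold: leaving out 1 library lost that of KIF27 in 6 of 6 fits (adjusted p up to 0.0247) and that of KIF7 in 5, all but that without shNC replicate 3 (up to 0.0159).
KIF9 had 29 to 47 reads in shNC and 19 to 28 in shSTIL, without overlap and with a log2 fold change of -0.71 (SE 0.22) that missed the threshold (adjusted p = 0.0147). KIF6 had at most 3 reads in any library.

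The remaining kinesins held the widest changes among the 35 members. KIF12, known from kidney and liver epithelium, was 4.61, 4.55 and 4.55 log2 CPM in shNC and 3.38, 3.77 and 3.71 in shSTIL. The groups stood far apart, with a log2 fold change of -0.95 (SE 0.10, adjusted p = 1.4e-06), the largest fall among the 35 genes, though its 95% interval of -1.16 to -0.75 holds that of KIF20A. KIF26B (kinesin-11), which lacks motor activity and takes part in noncanonical WNT signalling, was 2.61, 2.63 and 2.68 in shNC and 3.81, 3.32 and 3.72 in shSTIL. It had the largest rise of the 35, 0.98 (SE 0.13, adjusted p = 1.8e-05), or 1.97-fold, and the call was lost without shSTIL replicate 3 (adjusted p = 0.0110). KIF21A, an inhibitor of microtubule growth at the cell cortex, was 4.86, 4.95 and 4.81 in shNC and 4.80, 4.80 and 4.69 in shSTIL. Its groups did not overlap but the difference was not called (adjusted p = 0.138). KIF21B had 2 to 7 reads per library and KIF26A at most 1.

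Families defined by motor sequence are counted here over the 35 members alone, without the 4 genes left out, which may belong to them. On that count kinesin-5, kinesin-6, kinesin-8, kinesin-10 and kinesin-13 held mitotic members alone, and each of these members was called lower. Kinesin-12 held the mitotic KIF15 and KIF12, both called lower. Kinesin-3 held KIF14 and 6 transport motors, and 1 of its 7 members was called lower, and kinesin-4, with mitotic, ciliary and other members, had 2 falls and 1 rise in 6. The counts of kinesin-3 and kinesin-4 lie near or below the 23.6% lower and 23.5% higher among all genes.

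Summed over genes, mitotic and transport kinesins differed in the same way as their medians. The mitotic class gave 1484.1, 1537.4 and 1518.4 CPM in shNC and 1054.8, 1024.2 and 1035.7 CPM in shSTIL. The lowest shNC library was well above the highest shSTIL library, and the mean fell from 1513 ± 27.0 to 1038 ± 15.5 CPM (SD, n = 3), by 31.4%. Transport kinesins gave 731.45, 733.22 and 727.80 CPM in shNC and 746.76, 723.04 and 729.02 CPM in shSTIL. These groups overlapped, and the means of 730.8 ± 2.76 and 732.9 ± 12.3 CPM differed by 0.289%, less than the spread between shSTIL libraries. Mitotic kinesins thus made up 64.7 ± 0.41% of the summed CPM of the 35 members in shNC and 56.0 ± 0.04% in shSTIL. Transport kinesins made up 31.3 ± 0.36% and 39.5 ± 0.09%. The genes left out of the account and CENPE are not in this sum.

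The flat transport sum hid changes that offset each other. KIFC3 gained 58.5 CPM and KIF5B 11.6 CPM, whereas the mean of KIFC2 changed by -30.9 CPM, that of KIF1C by -11.8 CPM and that of KIF5C by -11.0 CPM. In the mitotic sum KIF11 (-86.2 CPM), KIF20A (-82.2 CPM) and KIFC1 (-70.9 CPM) made the largest contributions, and KIF14 made one of -0.27 CPM. Ciliary and other kinesins together were a small part of the summed CPM of the 35 members, with 34.3 ± 1.26 and 59.3 ± 1.29 CPM in shNC and 31.6 ± 0.64 and 51.9 ± 0.47 CPM in shSTIL.

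**Figure D5:**
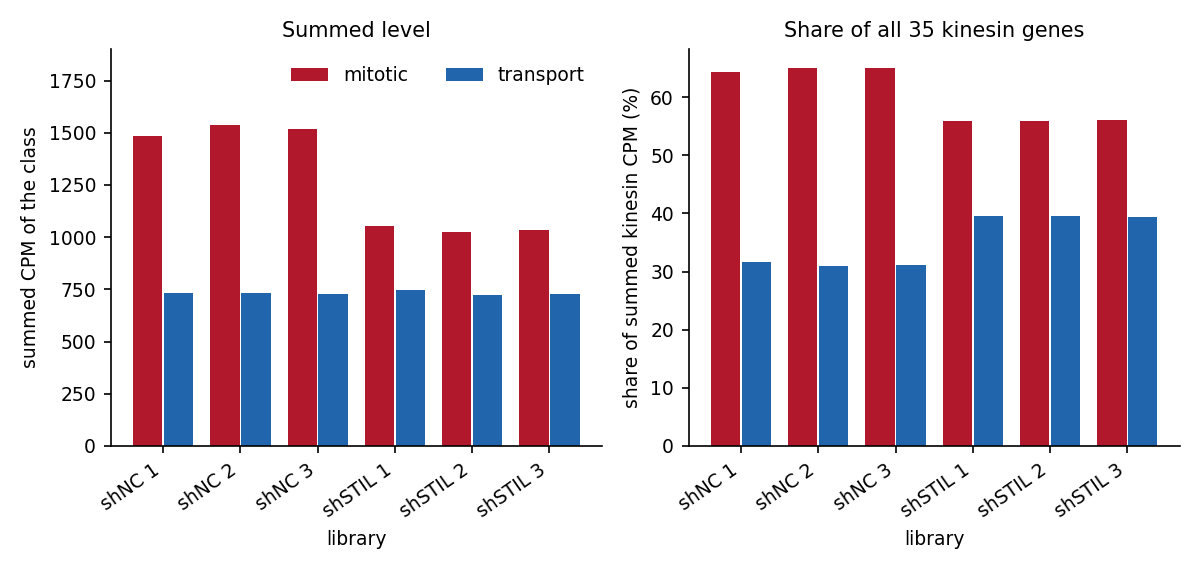
Summed CPM (left, y axis) and share of the CPM of all 35 kinesin genes in percent (right, y axis) of mitotic (red) and transport (blue) kinesins in each of the 6 libraries. The red bars drop from 1484.1 CPM or more in shNC to 1054.8 CPM or less in shSTIL, while the blue bars stay between 723.04 and 746.76 CPM.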

How the data were processed

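Per the labels and the study's methods, total RNA of EJ cells was extracted with Trizol and sequenced on the BGISEQ-500. The authors filtered reads with SOAPnuke, mapped them with Bowtie2 to a transcriptome and estimated gene counts with RSEM, and the submitters' processing notes name hg38 and limma; versions are not given in the sources used here. The deposited values are log2 CPM of 15953 genes in all 6 libraries, which the authors computed with edgeR, and estimated counts of 15957 genes in 4 libraries. RSEM divides reads among similar transcripts, so near copies are uncertain.

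Reads were recovered from the log2 CPM with a prior count of 2. In each library 87.1% to 87.4% of values were whole within 0.005 reads, and recovered values lay within 0.000495 of the deposited counts. The scaling factors of the libraries (TMM) were 0.981 to 0.992 in shNC and 1.01 to 1.02 in shSTIL. Counting error between replicates was exceeded in each pair of a group (chi-square per degree of freedom 1.69 to 3.49), so no library was a copy of another.

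The groups were compared with limma 3.58.1 (R 4.3.3; lmFit, then eBayes with trend) fitted to the log2 CPM values of every gene, with Benjamini-Hochberg adjustment and a threshold of 0.01, as in the study. Scripts were tested on simulated data. Alternatives were no trend, quantile normalization, median centring, only genes averaging at least 1 log2 CPM, prior counts of 0.5 and 5, edgeR 4.0.16 and DESeq2 1.42.0 on recovered reads (rounded for DESeq2), a threshold of 0.05, a replicate block and leaving out each library. Libraries with the same replicate number did not deviate together (correlations of -0.12, -0.06 and -0.11), so no block was used.

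The members, classes and gene lists were chosen with earlier results of these data known, and lists are described by counts and medians without a test. By rule, each listed mitotic kinesin and each other member averaging at least 3 log2 CPM is given by library, the rest by range, with CENPE and the 3 largest called rises and 3 largest called falls of the partner lists, of which 1 is not reported here. ECT2 and the cell type markers named were added after their values were seen.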

Additional observations from a re-analysis of the deposited data

How the results depend on the processing

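The count of kinesin genes called lower was 16 and ran from 13 to 19 over the alternatives, and that of mitotic kinesins called lower was 11 and ran from 10 to 11, with 0 called higher throughout. The mitotic median log2 fold change (-0.48) was -0.56 under quantile normalization, -0.44 under median centring, -0.53 over genes averaging at least 1 log2 CPM, -0.58 with a prior count of 0.5, -0.58 by edgeR, -0.58 by DESeq2 and -0.59 to -0.47 over the 6 fits that left out 1 library. The transport median (-0.01) was 0.03 under median centring, -0.092 over genes averaging at least 1, -0.052 by edgeR, -0.049 by DESeq2 and -0.12 to 0.0081 without 1 library. Transport kinesins called lower were 5 at a threshold of 0.05 and 2 to 3 without 1 library, and those called higher were 2 at that threshold, 2 under median centring (KIF5B, 0.14) and 1 to 2 without 1 library. Kinesins called higher were 1 to 3 without 1 library, with 1 without shSTIL replicate 3. Calls among all genes were 7509 in the main fit and 4900 to 5638 without 1 library, so these fits lose calls throughout. Over 28 genes and 16 settings, 404 of 447 results kept direction and call, 25 lost a call, 8 gained one and 10 turned direction, all 10 in genes near 0. Direction could not turn without the trend, over genes averaging at least 1 log2 CPM, with the block or at 0.05. These settings keep the fold change of each gene. The threshold of 0.05 also cannot lose a call. KIF14 turned to 0.037 under median centring and ran from -0.056 to 0.025 without 1 library. KIF13B turned to 0.021 under quantile normalization and 0.031 under median centring, and ran from -0.047 to 0.018. KIF1B ran from -0.12 to 0.0081 and KIF16B from -0.019 to 0.074 without 1 library. The cause was not tested in these cases. Outside the fits without 1 library, calls were lost for KIF13A (adjusted p = 0.0118) and KIF18A (0.0137) without the trend and for KIF7 (0.0103) and KIF27 (0.0160) by DESeq2. KIF1C was gained over genes averaging at least 1 log2 CPM (0.00564) and by edgeR (0.00578). By edgeR 18 kinesins were called lower, 11 mitotic and 4 transport, so a ciliary or other member outside the 28 genes was gained too.

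With the replicate number as a block, 6898 genes were called, with 16 kinesins lower, 2 higher, 11 mitotic lower, 3 transport lower and 1 transport higher, and KIF27 lost its call (adjusted p = 0.01). It is not stated whether the numbers pair the libraries, and libraries of the same number did not deviate together. Precision was limited by depth for KIF1A, KIF4B, KIF5A, KIF6, KIF17, KIF21B and KIF26A, each with at most 16 reads in any library.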
